A study of Mus musculus with 6 samples.

Results

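This section describes 32 genes of the integrated stress response (ISR) and of serine and one-carbon metabolism in mouse interscapular brown adipose tissue after loss of Beclin 1 from adipocytes. They were chosen by symbol from the deposited gene table, which lists 18507 genes, and all 32 were found and passed the filter on low counts, among 15347 genes that did. Beclin1 KO tissue came from 3 C57BL/6 mice with the genotype Beclin1-/-, in a series titled as an adipocyte-specific knockout, and WT tissue came from 3 wild-type C57BL/6 controls. Transgenic mice and WT controls alike received tamoxifen by oral gavage at 75 mg/kg on 5 consecutive days for Cre recombination, per the labels' protocol, while a separate treatment tag reads untreated for every sample. All mice were fed chow and housed at 22 °C under a 12 h light cycle. The promoter that drives the Cre, the ages and sexes, and the time between tamoxifen and dissection are not given in the sources used here. Polyadenylated RNA was sequenced from samples that the submitters describe as biological replicates.

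The integrated stress response starts when a kinase phosphorylates the translation factor eIF2. General protein synthesis then slows while the mRNA of the transcription factor ATF4 is translated more, so ATF4 activity is set largely by translation and its mRNA level is only a partial readout. ATF4 and its partners switch on genes that import and make amino acids, among them the enzymes that turn a glycolytic intermediate into serine and those that pass the carbon of serine to folate in the cytosol and in mitochondria. In tissues with impaired mitochondria, the mitochondrial folate enzymes, serine synthesis and the secreted factors Gdf15 and Fgf21 are known as markers of this response.

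Total counts were 50536315 to 60983193 per Beclin1 KO library and 44269031 to 50842488 per WT library. Levels are given as CPM (each gene's count relative to the TMM-scaled library total), and a gene is said to have risen or fallen in Beclin1 KO where the edgeR adjusted p is below 0.05. Becn1 itself (chr11:101288258-101302286, GRCm38) stood at 58.0, 53.7 and 42.7 CPM in Beclin1 KO, against 82.8, 86.4 and 89.2 CPM in WT, and fell 1.67-fold (adjusted p = 0.00412), with RNA of cells other than adipocytes in both groups. The makeup of the tissue differed between the groups. The 12 macrophage markers all rose, with a summed level of 5055 to 8269 CPM in Beclin1 KO and 278 to 327 CPM in WT, and all 6 fibroblast markers rose, with sums of 8935 to 15005 and 1847 to 2744 CPM. Of 10 adipocyte markers 9 fell and none rose, with sums of 8332 to 15447 CPM in Beclin1 KO and 30530 to 35925 CPM in WT. Skeletal muscle markers had sums of 1487 to 35807 CPM in Beclin1 KO and 732 to 20036 CPM in WT, and 0 of 12 passed with edgeR, DESeq2 or limma-voom (0 also at an unadjusted p under 0.05). Of 9 lymphocyte markers 5 rose and 2 fell, of 6 endothelial markers 5 fell, and 0 of 4 neutrophil markers passed with any of these tools (0 also unadjusted). No marker was at 0 in all libraries. The part of these shifts in the results that follow was not tested, and in whole tissue fewer cells of a type and less RNA per cell cannot be told apart.

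The 32 genes split in both directions at about the rate of the whole transcriptome. In Beclin1 KO tissue 7 rose (Nupr1, Chac1, Slc7a5, Phgdh, Psat1, Mthfd1l and Aldh1l2), 8 fell (Atf5, Cebpg, Ppp1r15b, Eif4ebp1, Slc1a5, Psph, Shmt1 and Mthfd1) and 17 did not pass. That makes 46.9% of the members, against a background of 46.6% of all tested genes, with 24.8% of all tested genes higher and 21.8% lower, so the number of calls is not a result about these genes. The median log2 fold change (Beclin1 KO minus WT) was 0.15 over the members and 0.05 over all tested genes. Groups did not overlap for 18 of 32 members, against 59.7% of all tested genes. Of the members in the authors' deposited table, 9 were higher and 9 lower at an adjusted p below 0.05, beside 24.1% and 20.2% of the genes with an adjusted p there. On the FPKM scale, where the median gene lies 0.32 log2 units higher than in the count fit, 12 of 30 members tested were higher and 5 lower with limma on log2(FPKM + 1), beside 39.3% and 13.7% of all genes tested.

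**Figure D1:**
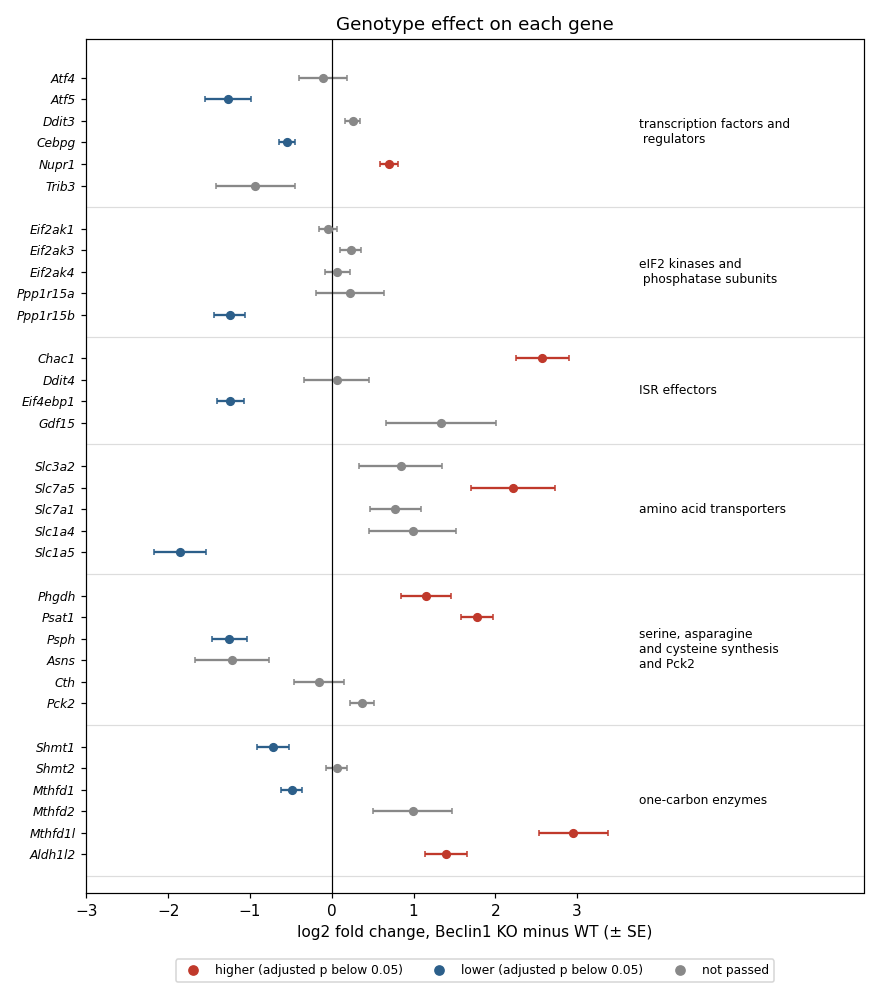
Log2 fold change of each of the 32 genes (Beclin1 KO minus WT, points) with its standard error (bars), grouped by role, with n = 3 libraries per group. The 7 genes that rose are red, the 8 that fell are blue and the 17 that did not pass are grey, and every role except the kinases and phosphatase subunits, which hold 1 fall and 0 rises, has calls in both directions.

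ATF4 and C/EBP proteins bind composite elements with the core TGATGNAA, and Chac1, Nupr1, Asns and Pck2 are shown because these letters stand before their annotated starts. Promoters from RefSeq (GRCm38.p6) were matched for 26 of the 32 genes, as 31 promoters, and the 250 bases before each start were searched on both strands. Eif4ebp1, Cth, Slc1a5, Slc7a5, Ppp1r15b and Aldh1l2 had no promoter there and were not searched. TGATGNAA was found in 4 of the 31 promoters and in 3.45% of all 32851 promoters of the same length. The palindrome TGACGTCA, the full cyclic AMP response element that ATF and CREB factors bind, was found in 1 of the 31, that of Ppp1r15a, and in 1.55% of all. In the lines that follow each sequence reads 5′ to 3′ on the strand of its gene, and capitals mark the match.
Chac1 (chr2:119351004-119351101, plus strand): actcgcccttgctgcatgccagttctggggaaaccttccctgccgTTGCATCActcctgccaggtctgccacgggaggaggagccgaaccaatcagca
Nupr1 (chr7:126625528-126625625, minus strand): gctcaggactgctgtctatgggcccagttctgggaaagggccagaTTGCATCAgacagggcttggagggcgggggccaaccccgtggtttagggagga
Asns (chr6:7693210-7693277, minus strand): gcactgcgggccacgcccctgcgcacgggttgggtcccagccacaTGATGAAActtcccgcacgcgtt
Pck2 (chr14:55540118-55540215, plus strand): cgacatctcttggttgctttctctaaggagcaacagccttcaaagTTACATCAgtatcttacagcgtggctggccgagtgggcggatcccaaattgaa
Ppp1r15a (chr7:45526269-45526325, minus strand): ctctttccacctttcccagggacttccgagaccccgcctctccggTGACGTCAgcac
The match begins 193 bases before the start of Chac1, 110 before that of Nupr1, 23 before that of Asns, 103 before that of Pck2 and 12 before that of Ppp1r15a. In Chac1 and Nupr1 the letters are the same, TTGCATCA, the element read on the opposite strand. Both genes rose, while Asns, Pck2 and Ppp1r15a did not pass. Phgdh, Psat1 and Mthfd1l also rose, and no match was found in their promoters. A match describes these letters and is not evidence of a bound site.

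Among the transcription factors and their regulators, 1 of 6 rose and 2 fell. Atf4 mRNA, which encodes the central factor of the response, stood at 163, 155 and 277 CPM in Beclin1 KO, against 279, 198 and 164 CPM in WT. The groups overlapped over almost their whole range, with a log2 fold change of -0.11 (SE 0.29, adjusted p = 0.785). The sign turned to 0.23 on the FPKM scale, where the median gene is itself shifted upward by 0.32. Atf5 (chr7:44812256-44816658), a close relative with a known role in the mitochondrial stress response, had 148, 156 and 210 CPM in Beclin1 KO and 332, 320 and 583 CPM in WT. Every knockout library was below every WT library, and Atf5 fell 2.41-fold (log2 fold change -1.27, SE 0.28, adjusted p = 0.00973).

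Cebpg (chr7:35046422-35056566), a C/EBP protein that pairs with ATF4 on amino acid response elements, had 80.7, 75.0 and 80.5 CPM in Beclin1 KO and 119, 108 and 118 CPM in WT. The groups were far apart relative to their spread, and Cebpg fell 1.46-fold (adjusted p = 0.00376), a call that was lost on the FPKM scale (log2 fold change -0.19, adjusted p = 0.147). Nupr1 (chr7:126623246-126625470), a small stress-induced chromatin protein, went the other way with 57.6, 50.04 and 53.1 CPM in Beclin1 KO and 30.4, 31.7 and 36.7 CPM in WT. It rose 1.63-fold (log2 fold change 0.70, SE 0.11, adjusted p = 0.00276).

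Ddit3, which encodes the CHOP factor, had 38.8, 38.4 and 40.8 CPM in Beclin1 KO and 34.5, 32.4 and 31.9 CPM in WT. The groups did not overlap, but the difference was small (log2 fold change 0.26, SE 0.09) and missed the threshold at an adjusted p of 0.0523. Ddit3 passed with DESeq2 (0.0315), with the filter of 1 CPM (0.0430) and on the FPKM scale (0.00405), where the median gene is itself shifted upward. Its annotation (chr10:127290793-127296291) overlaps the end of Mars (chr10:127296221-127311786), so a few reads could belong to either. Trib3, a pseudokinase that ATF4 and CHOP induce and that restrains them, had 5.39, 3.99 and 13.4 CPM in Beclin1 KO and 11.6, 19.2 and 12.7 CPM in WT. Knockout replicates 1 and 2 lay below every WT library and replicate 3 within them (adjusted p = 0.159). Without knockout replicate 3 the log2 fold change of Trib3 was -1.63, against -0.93 with it, and passed (adjusted p = 0.00579).

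Of the kinases that phosphorylate eIF2 and the subunits that direct its dephosphorylation, 4 of 5 did not pass. Eif2ak3, the PERK kinase of the endoplasmic reticulum, had 24.8 to 27.2 CPM in Beclin1 KO and 19.8 to 25.5 CPM in WT (log2 fold change 0.23, adjusted p = 0.174). The amino acid sensor GCN2, encoded by Eif2ak4, had 16.2 to 23 and 17.8 to 19.3 CPM (adjusted p = 0.735), and the heme-regulated kinase Eif2ak1, which also relays mitochondrial stress, 53.1 to 58.4 and 52.7 to 63.9 CPM (adjusted p = 0.745). On the FPKM scale, Eif2ak3 and Eif2ak1 passed as higher (adjusted p = 0.0161 and 0.0354). For Eif2ak1 this turned the sign, the log2 fold change being -0.05 in the count fit and 0.29 on the FPKM scale, close to the shift of the median gene on that scale.

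Of the phosphatase subunits, 1 fell and the other did not pass. Ppp1r15b (chr1:133131166-133139800), the constitutive subunit CReP, had 97.4, 112 and 147 CPM in Beclin1 KO and 326, 245 and 278 CPM in WT, without overlap. It fell 2.38-fold (log2 fold change -1.25, SE 0.19, adjusted p = 0.00235). Ppp1r15a, the stress-induced subunit GADD34, had 33.4, 32.4 and 83.1 CPM in Beclin1 KO and 51.6, 44.6 and 31.3 CPM in WT (adjusted p = 0.693). Knockout replicate 3 alone stood above the WT libraries, and without it the log2 fold change of Ppp1r15a was -0.37, against 0.22 with it.

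Among the effectors, Chac1 rose and Eif4ebp1 fell. Chac1 (chr2:119351242-119354326), a glutathione-degrading enzyme induced through ATF4 and CHOP, had 10.8, 7.02 and 10.2 CPM in Beclin1 KO and 0.990, 1.85 and 1.85 CPM in WT. All knockout libraries lay well above all WT libraries, with a 5.95-fold rise (log2 fold change 2.57, SE 0.32, adjusted p = 0.00104) on 450 to 691 reads in Beclin1 KO and 41 to 83 reads in WT. Eif4ebp1 (chr8:27260327-27275656), the 4E-BP1 repressor of cap-dependent translation and another ATF4 target, had 87.9, 96.8 and 131 CPM in Beclin1 KO and 245, 242 and 257 CPM in WT. It fell 2.36-fold (log2 fold change -1.24, SE 0.17, adjusted p = 0.00142), so these targets of the same factor lay on opposite sides.

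Gdf15, a secreted stress hormone, had 4.03, 9.17 and 18.4 CPM in Beclin1 KO and 4.42, 6.36 and 1.76 CPM in WT. The knockout libraries spread more than 4-fold and overlapped WT, and the log2 fold change of 1.33 (SE 0.67) did not pass (adjusted p = 0.154). Gdf15 passed in 1 of 16 alternatives, the fit without the muscle-richest library of each genotype, knockout replicate 1 and WT replicate 2 (log2 fold change 2.16, adjusted p = 0.0429). Ddit4, the REDD1 inhibitor of mTORC1, had 51.3, 19.96 and 40.03 CPM in Beclin1 KO and 23.9, 36.0 and 46.8 CPM in WT, with no separation (adjusted p = 0.914).

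**Figure D2:**
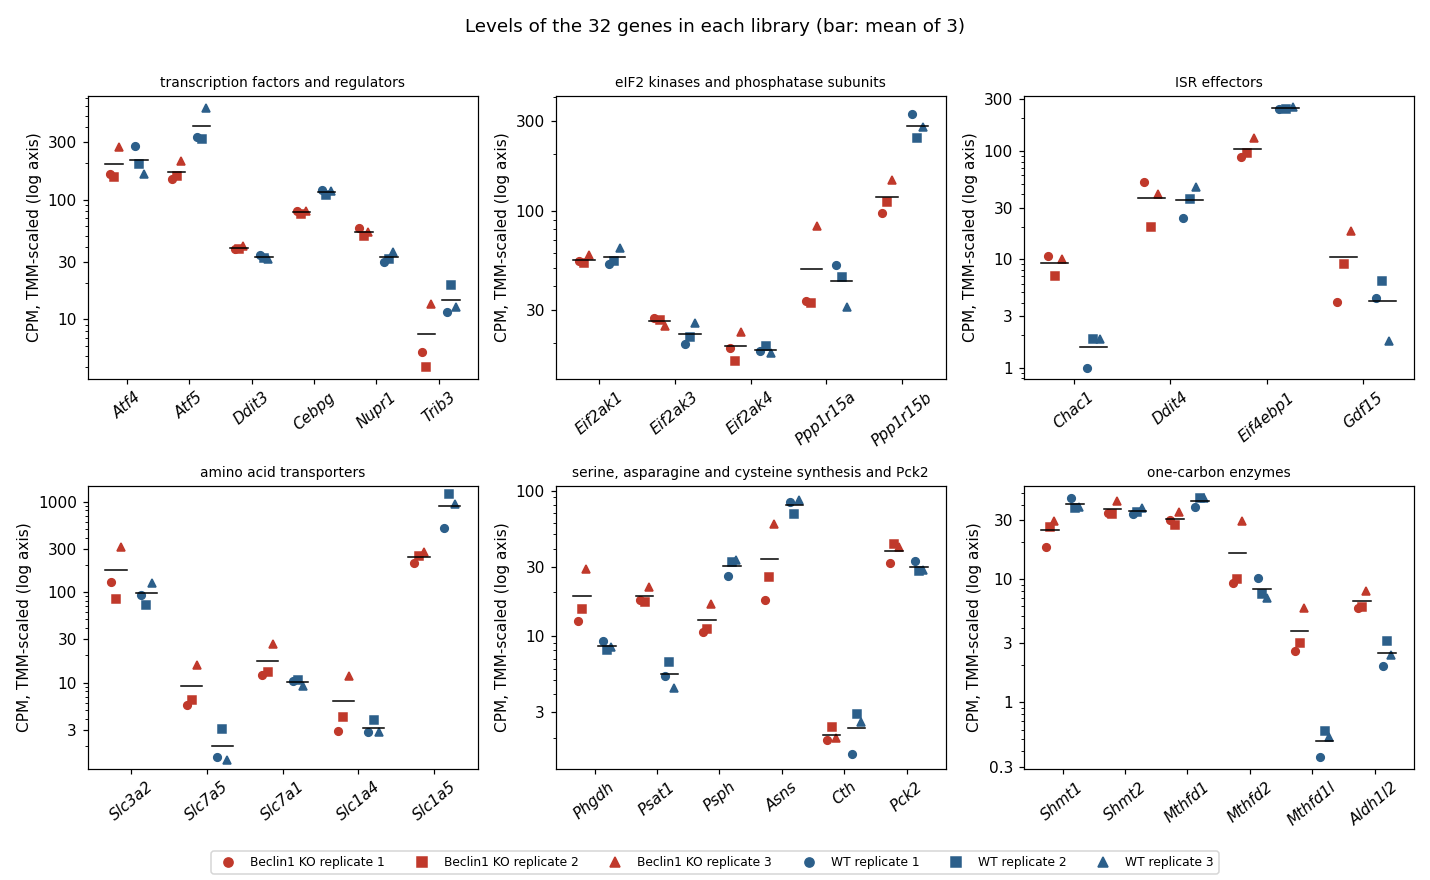
CPM of the 32 genes in every library on log axes, in a panel per role, with Beclin1 KO in red left of WT in blue and a black bar at the mean of 3 libraries. Chac1, Psat1, Mthfd1l and Aldh1l2 are higher in every Beclin1 KO library than in any WT library, Ppp1r15b, Eif4ebp1, Slc1a5 and Psph are lower in every one, and Beclin1 KO replicate 3 (triangles) is often the highest red point.

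Amino acid transporters showed 1 rise and 1 fall of 5. Slc7a5 (chr8:121881146-121907686), the LAT1 carrier of leucine and other large neutral amino acids, had 5.68, 6.49 and 15.6 CPM in Beclin1 KO and 1.5, 3.06 and 1.40 CPM in WT. The groups were apart, and Slc7a5 rose 4.65-fold (log2 fold change 2.22, SE 0.51, adjusted p = 0.0122), a call that narrowly missed without WT replicate 3 (2.00, adjusted p = 0.0521). Its partner Slc3a2, the heavy chain that brings LAT1 to the membrane, had 129, 84.9 and 312 CPM in Beclin1 KO and 92.3, 73.0 and 128 CPM in WT and did not pass (adjusted p = 0.228).

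Slc1a5 (chr7:16781334-16798274), the glutamine carrier ASCT2, had 210, 249 and 280 CPM in Beclin1 KO and 517, 1203 and 945 CPM in WT. It fell 3.61-fold (log2 fold change -1.85, SE 0.32, adjusted p = 0.00364), and its knockout libraries lay together while WT ranged more than 2-fold. The related carrier of alanine and serine, Slc1a4, had 2.94, 4.13 and 11.8 CPM in Beclin1 KO and 2.83, 3.88 and 2.83 CPM in WT (adjusted p = 0.170), so only knockout replicate 3 stood clearly above WT. Slc7a1, the cationic amino acid carrier CAT1, had 12.3, 13 and 26.8 CPM in Beclin1 KO and 10.5, 10.6 and 9.19 CPM in WT. Its groups did not overlap, yet the adjusted p was 0.0835, and Slc7a1 passed in 4 of 16 alternatives.

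The first steps of serine synthesis rose and the last fell. Phgdh (chr3:98313171-98339969), which takes 3-phosphoglycerate into the pathway, had 12.8, 15.5 and 28.8 CPM in Beclin1 KO and 9.27, 8.03 and 8.38 CPM in WT, a 2.22-fold rise (log2 fold change 1.15, SE 0.30, adjusted p = 0.0201). The call of Phgdh was lost when any WT library was left out (adjusted p = 0.0569, 0.0652 and 0.0701 without WT replicates 1, 2 and 3), with a log2 fold change of 1.10 to 1.18. Psat1 (chr19:15905123-15925059), the transaminase of the second step, had 17.8, 17.1 and 21.8 CPM in Beclin1 KO and 5.36, 6.69 and 4.44 CPM in WT. It rose 3.44-fold (log2 fold change 1.78, SE 0.20, adjusted p = 0.000612), with tight groups far apart, and passed in all 16 alternatives.

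Psph (chr5:129765558-129787443), the phosphatase that releases serine, had 10.6, 11.2 and 16.7 CPM in Beclin1 KO and 25.7, 32.5 and 33.5 CPM in WT. It fell 2.38-fold (log2 fold change -1.25, SE 0.21, adjusted p = 0.00328) and likewise passed in all 16 alternatives. Per transcript length, mean FPKM (fragments scaled to transcript length and library size) of Phgdh, Psat1 and Psph was 11.2 ± 4.92, 9.60 ± 1.10 and 9.24 ± 2.31 in Beclin1 KO, where the levels lay within their spread of each other, against 3.98 ± 0.48, 2.17 ± 0.56 and 17.2 ± 1.65 in WT, where Psph stood above both (SD, n = 3 each).

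Asns, which makes asparagine and is among the best known ATF4 targets, had 17.8, 25.4 and 59.3 CPM in Beclin1 KO and 83.7, 68.6 and 86.5 CPM in WT. All knockout libraries were below all WT libraries, but they differed from each other by more than 3-fold, and the log2 fold change of -1.22 (SE 0.45) did not pass (adjusted p = 0.0709). Asns passed as lower with DESeq2 (adjusted p = 0.00760), with limma-voom (0.0322) and without knockout replicate 3 (log2 fold change -1.88, adjusted p = 0.000849). Pck2, the mitochondrial phosphoenolpyruvate carboxykinase, had 31.7, 42.7 and 41.2 CPM in Beclin1 KO and 33.0, 27.9 and 28.6 CPM in WT (log2 fold change 0.37, adjusted p = 0.0754). It passed as higher without knockout replicate 1 (adjusted p = 0.0209) and on the FPKM scale (0.0165), where the median gene is itself shifted upward. Cth, which makes cysteine, was scarce in both groups with 1.94 to 2.39 CPM in Beclin1 KO and 1.55 to 2.92 CPM in WT (adjusted p = 0.709).

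Among the one-carbon enzymes, mitochondrial members rose or did not pass and both cytosolic members fell. Mthfd1l (chr10:3972892-4167081), the mitochondrial enzyme that releases formate, had 2.61, 3.02 and 5.77 CPM in Beclin1 KO and 0.362, 0.580 and 0.522 CPM in WT. Every knockout library was at least 4-fold above every WT library, and with 144 to 391 reads in Beclin1 KO and 15 to 26 in WT, Mthfd1l rose 7.75-fold (log2 fold change 2.95, SE 0.42, adjusted p = 0.00174). Aldh1l2 (chr10:83487447-83534146), the mitochondrial 10-formyltetrahydrofolate dehydrogenase, had 5.86, 5.89 and 8.02 CPM in Beclin1 KO and 1.96, 3.15 and 2.40 CPM in WT. It rose 2.63-fold (log2 fold change 1.40, SE 0.26, adjusted p = 0.00494) and passed in all 16 alternatives.

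Mthfd2, the mitochondrial dehydrogenase and cyclohydrolase that is low in most adult tissues, had 9.20, 9.99 and 29.7 CPM in Beclin1 KO and 10.1, 7.54 and 7.0 CPM in WT. Knockout replicates 1 and 2 lay at the WT level and replicate 3 stood above it, and the log2 fold change of 0.99 (SE 0.49) did not pass (adjusted p = 0.145). Shmt2, the mitochondrial serine hydroxymethyltransferase, had 34.1, 33.7 and 43.2 CPM in Beclin1 KO and 33.6, 34.9 and 37.8 CPM in WT (adjusted p = 0.712). On the FPKM scale Shmt2 passed as higher (log2 fold change 0.38, adjusted p = 0.0313), but there the median gene is itself 0.32 log2 units higher.

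The cytosolic counterpart Shmt1 (chr11:60788897-60811265) had 18.1, 26.5 and 29.7 CPM in Beclin1 KO and 45.7, 38.0 and 38.2 CPM in WT and fell 1.64-fold (log2 fold change -0.71, SE 0.20, adjusted p = 0.0231). Mthfd1 (chr12:76254406-76319820), the cytosolic enzyme with 3 activities on folate, had 29.9, 27.2 and 35 CPM in Beclin1 KO and 38.6, 45.7 and 45.2 CPM in WT and fell 1.41-fold (log2 fold change -0.49, SE 0.13, adjusted p = 0.0205). The groups of both genes were apart, but both calls were lost on the FPKM scale (adjusted p = 0.190 for Shmt1 and 0.365 for Mthfd1). The call of Shmt1 also went when replicate numbers entered the fit as a block (adjusted p = 0.0564), without WT replicate 1 (0.0670) and without knockout replicate 2 (0.0545). Mthfd1 was lost without WT replicate 2 (adjusted p = 0.0655) or 3 (0.0688), without knockout replicate 1 (0.0553) or 2 (0.0696), and without the muscle-richest library of each genotype (0.139).

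Ratios between paired genes within a library do not depend on how libraries are scaled, and 10 pairs were compared by log2 FPKM ratio. The ratio was higher in all 3 Beclin1 KO libraries than in any WT library for 7 pairs and lower for 1. With 3 against 3 libraries the exact two-sided permutation test cannot go below p = 0.1. These 8 pairs reached that value (adjusted p = 0.125 over the 10 pairs), so none could pass 0.05. Of single tested genes 59.7% did not overlap between the groups in CPM, and no such share was computed over gene pairs. Several pairs also hold a gene called above, so the number of separated pairs is not a result about them. Mthfd1l over Mthfd1, the mitochondrial over the cytosolic enzyme, gave ratios of 0.0773, 0.0991 and 0.147 in Beclin1 KO and 0.00779, 0.0105 and 0.00998 in WT, an 11.1-fold difference. Mthfd2 over Mthfd1 stood at 0.494, 0.590 and 1.36 in Beclin1 KO and 0.421, 0.265 and 0.248 in WT, and the closest libraries of the groups were much nearer to each other than for Mthfd1l.

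Shmt2 over Shmt1 was above 1 in every Beclin1 KO library (1.69, 1.14 and 1.3) and below 1 in every WT library (0.659, 0.823 and 0.886). Pck2 over Pck1 was 0.0247, 0.0340 and 0.0140 in Beclin1 KO and 0.00425, 0.00395 and 0.00335 in WT, a 5.94-fold difference. In that pair the cytosolic gene Pck1, which serves glyceroneogenesis in fat, carried the change with 1406 ± 744 CPM in Beclin1 KO and 5987 ± 566 CPM in WT (SD, n = 3 each). Ppp1r15a over Ppp1r15b was 0.822, 0.691 and 1.35 in Beclin1 KO and 0.380, 0.437 and 0.270 in WT. Of the Shmt and Ppp1r15 genes, Shmt1 and Ppp1r15b fell (log2 fold change -0.71 and -1.25). Shmt2 and Ppp1r15a did not pass (0.06 and 0.22).

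Slc1a4 over Slc1a5 was 0.00983, 0.0117 and 0.0296 in Beclin1 KO and 0.00383, 0.00226 and 0.00209 in WT, and Slc7a5 over Slc3a2 was 0.0325, 0.0565 and 0.0369 in Beclin1 KO and 0.0120, 0.0310 and 0.00792 in WT. In both the ratio of the scarcer to the more abundant transporter was higher, and for Slc7a5 the closest libraries of the groups nearly touched. In the first pair Slc1a5 fell (log2 fold change -1.85) and Slc1a4 did not pass (0.99). In the second Slc7a5 rose (2.22) and Slc3a2 did not pass (0.84). Atf5 over Atf4 was the pair that was lower, with 0.865, 0.945 and 0.723 in Beclin1 KO and 1.14, 1.54 and 3.39 in WT. Ddit3 over Atf4 (p = 0.3 by the exact permutation test) and Eif2ak3 over Eif2ak4 (p = 0.8 by the same test) overlapped between the groups.

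**Figure D3:**
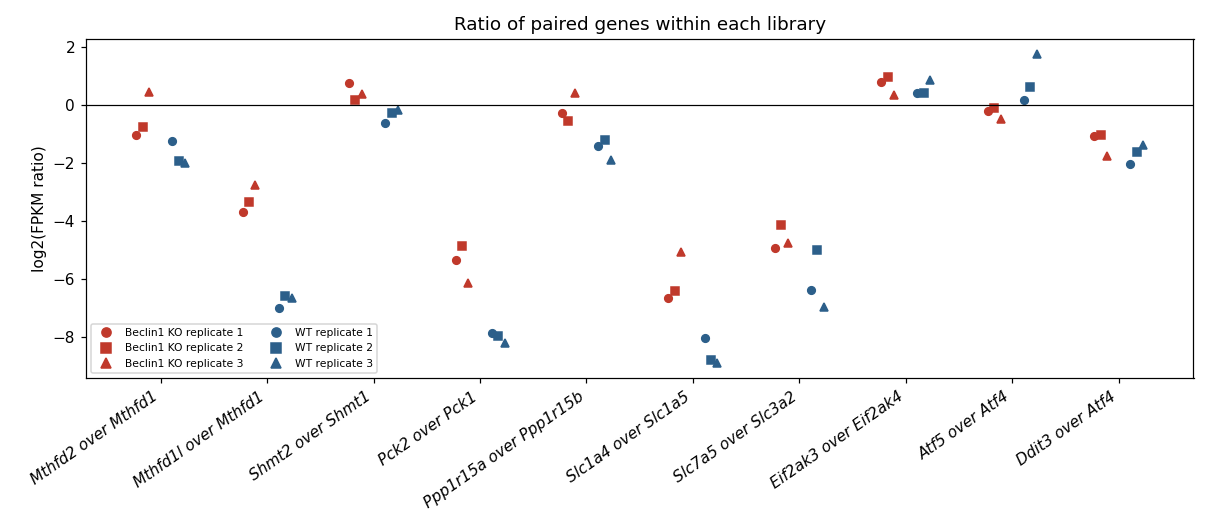
Log2 ratio of the FPKM of paired genes in each library, with Beclin1 KO in red left of WT in blue and marker shapes for replicate numbers. Of the 10 pairs 8 do not overlap between the groups, beside 59.7% of single tested genes in CPM (no share was computed over gene pairs). Mthfd1l over Mthfd1 shows a difference of 3.48 log2 units, and Eif2ak3 over Eif2ak4 and Ddit3 over Atf4 overlap.

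Beclin1 KO replicate 3 was the highest of the 3 knockout libraries for 25 of the 32 members (78.1%), against 38.4% of all tested genes. This held for 5 of 7 members that rose (22.6% of all genes that rose), 7 of 8 that fell (62.7% of all that fell) and 13 of 17 that did not pass (35.8% of all such genes). Its level was at least 2-fold that of both other knockout libraries for 9 members (28.1%), against 2.01% of all tested genes. These were Trib3, Ppp1r15a, Gdf15, Slc3a2, Slc7a5, Slc7a1, Slc1a4, Asns and Mthfd2, of which all but Slc7a5 did not pass between the genotypes. These counts describe a single mouse and were chosen after its values were seen.

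In the same libraries the summed adipocyte markers were 8332, 10503 and 15447 CPM in Beclin1 KO replicates 1, 2 and 3, highest in replicate 3. The macrophage sums were 8269, 6167 and 5055 CPM and the muscle sums 35807, 8503 and 1487 CPM, lowest in replicate 3, and the fibroblast sum was also lowest there at 8935 CPM. The part of these differences in the pattern was not tested. The pattern was not shared by every member, since Nupr1, Chac1, Cebpg, Ddit4 and Eif2ak3 were highest in replicate 1, and Cth and Pck2 in replicate 2.

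**Figure D4:**
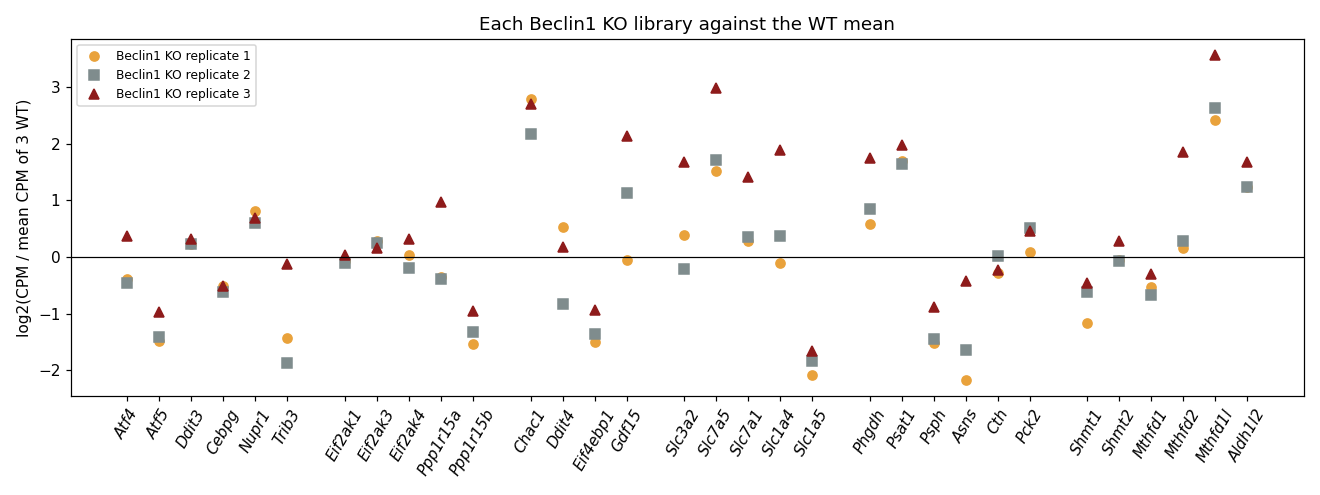
Log2 of the CPM of each Beclin1 KO library over the mean of the 3 WT libraries for the 32 genes, in order of role, with 0 marking the WT mean. Replicate 3 (dark triangles) is the highest knockout library for 25 of 32 genes, while Chac1, Psat1, Mthfd1l and Aldh1l2 are above and Ppp1r15b, Slc1a5 and Psph below the WT mean in all 3.

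The other genes of the pathway were read from 5 further lists, of which 97 genes were tested, 14 rose, 30 fell and 53 did not pass, so 45.4% were called, against 46.6% of all tested genes (24.8% higher and 21.8% lower). Beside the ISR members, 24 further ISR genes were tested, of which 9 rose, 4 fell and 11 did not pass (median log2 fold change 0.55, against 0.05 for all tested genes). Atf3, a stress-induced repressor, rose 7.50-fold to 81.7, 61 and 86.3 CPM in Beclin1 KO, against 9.44, 11.3 and 9.78 CPM in WT (adjusted p = 7.24e-05). Gadd45a, a growth arrest gene, rose 6.33-fold (adjusted p = 0.000138), Aldh18a1, the first enzyme of proline synthesis, 3.31-fold (adjusted p = 0.00122), and Slc43a1, a neutral amino acid carrier, 2.79-fold (adjusted p = 0.00173). Macrophage and fibroblast sums were higher in the same libraries, and their part in these rises was not tested.

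The 4 further ISR genes that fell were Vldlr, a lipoprotein receptor (2.04-fold, adjusted p = 0.0110), Sesn2, a leucine sensor (2.16-fold, 0.0450), Cebpb, an adipogenic factor (2.11-fold, 0.0479), and the factor Nfe2l1 (1.48-fold, 0.0448). The calls of Sesn2, Cebpb and Nfe2l1 were lost on the FPKM scale and in 5 of 6 fits with a single library left out, all but that without knockout replicate 3. Fgf21, the other secreted marker of mitochondrial stress, was scarce in every library except knockout replicate 3, with 0.817, 0.125 and 3.80 CPM in Beclin1 KO and 0.386, 0 and 0.214 CPM in WT (adjusted p = 0.147).

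The aminoacyl-tRNA synthetases, which load amino acids onto tRNAs, differed by compartment. Of 20 cytosolic genes, many of them ATF4 targets, 2 rose (Rars, 1.38-fold, adjusted p = 0.00989, and Nars, 1.37-fold, 0.0468), 2 fell (Mars, 1.82-fold, 0.0128, and Gars, 1.71-fold, 0.0228) and 16 did not pass, with a median log2 fold change of 0.09. Of 17 mitochondrial genes 0 rose (0 also at an unadjusted p under 0.05 and with DESeq2 or limma-voom), 13 fell (76.5%, against 21.8% of all tested genes) and 4 did not pass, with a median of -0.75. Of the cytosolic calls, that of Nars was lost in 4 of 6 fits with a library left out and that of Gars in 3. On the FPKM scale 11 cytosolic genes were higher and 1 lower (median 0.42), and 0 mitochondrial genes were higher and 6 lower (median -0.32), the median gene being 0.32 log2 units higher there. Fars2 fell 2.49-fold to 37.2 ± 9.12 CPM in Beclin1 KO, against 92.6 ± 6.22 CPM in WT (SD, n = 3 each, adjusted p = 0.00147), and Iars2, Aars2 and Hars2 fell 2.29-fold, 2.08-fold and 1.61-fold (adjusted p = 0.00205, 0.00429 and 0.00264). Adipocyte markers were lower in the same libraries, and their part in these falls was not tested. The difference between the compartments was not itself tested either.

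Of 10 genes for eIF2, its exchange factor eIF2B and related initiation factors, 0 rose and 5 fell (median -0.28). The count of rises was 0 with edgeR, DESeq2 and limma-voom alike (0 also unadjusted with edgeR). The number of calls in either direction was again near the background, 46.6% of all tested genes. Their direction was not, as all 5 were falls, beside 24.8% of all tested genes higher and 21.8% lower. This difference in direction was not itself tested. The eIF2B genes Eif2b4 and Eif2b1 fell 1.46-fold and 1.48-fold (adjusted p = 0.00194 and 0.00217), and Eif2b3, Eif2b5 and the initiation factor Eif2d fell 1.35-fold, 1.27-fold and 1.28-fold (0.0233, 0.0296 and 0.0473). All 5 were small changes that did not pass on the FPKM scale, where 2 of the 10 were higher, the median was 0.07 and the values of Eif2b5 and Eif2d were 0.0085 and 0.0014 log2 units. The genes of eIF2 itself (Eif2s1 and Eif2s2 among them) did not pass.

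Of 26 further folate and methionine cycle genes tested, 3 rose, 6 fell and 17 did not pass (median -0.29, and 0.03 on the FPKM scale with 5 higher and 3 lower of 25). The share called was 34.6%, below the 46.6% of all tested genes (24.8% higher and 21.8% lower). Slc19a1, the reduced folate carrier of the plasma membrane, fell 2.99-fold, with 12.4, 11.1 and 17 CPM in Beclin1 KO and 40.6, 41.2 and 39.3 CPM in WT (adjusted p = 0.000593). The glycine cleavage genes Gcsh and Dld, of which Dld also serves other dehydrogenase complexes, fell 2.45-fold and 3.21-fold (adjusted p = 0.00117 and 0.00172). Amt, which acts with them in glycine cleavage, did not pass (log2 fold change -0.29, adjusted p = 0.435). The glycine decarboxylase gene Gldc rose 9.85-fold at a low level of 1.76, 2.42 and 1.11 CPM in Beclin1 KO, against 0.0966, 0.335 and 0.0950 CPM in WT (adjusted p = 0.00559). Ggh, a lysosomal folate hydrolase, rose 1.66-fold (adjusted p = 0.00225) and Atic, which spends formyl folate in purine synthesis, 1.42-fold (adjusted p = 0.00394).

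**Figure D5:**
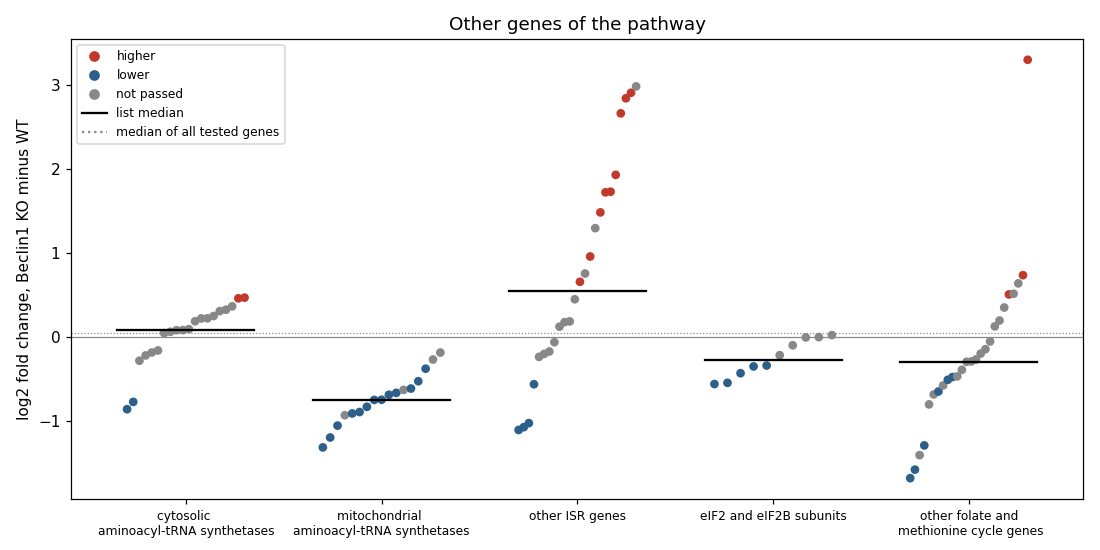
Log2 fold change (Beclin1 KO minus WT) of each tested gene of 5 further lists, sorted within a list, with genes that rose in red, fell in blue and did not pass in grey, black bars at list medians and a dotted line at the median of all tested genes. Mitochondrial aminoacyl-tRNA synthetases lie below 0 throughout in this count fit (median -0.75, and -0.32 on the FPKM scale), while the further ISR genes spread to both sides (median 0.55).

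Per transcript length, Atf4 was the most abundant of the 32 genes in Beclin1 KO with 127 ± 41.5 FPKM, followed by Eif4ebp1 (119 ± 24.9), Atf5 (105 ± 20.1) and Slc1a5 (99.1 ± 15.5), and these neighbours lay within their spread of each other. In WT the order was Slc1a5 (278 ± 105), Eif4ebp1 (220 ± 8.42), Atf5 (195 ± 58.2) and Atf4 (108 ± 36.1), of which Atf4 lay below Eif4ebp1 by more than their spread (SD, n = 3 each). At the low end stood Mthfd1l with 1.13 ± 0.498 FPKM in Beclin1 KO and 0.107 ± 0.0220 FPKM in WT, and Aldh1l2 with 1.21 ± 0.213 and 0.359 ± 0.0858 FPKM.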

How the data were processed

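The submitters' processing notes name the build mm10 and the tools HISAT2 2.1.0, StringTie 1.3.4d, DESeq2, Trimmomatic and bcl2fastq 2.20.0, without roles or order. The annotation, strand setting and handling of multiply mapped reads are not given in the sources used here. Per the file headers, the authors deposited raw read counts per gene, the basis of all main tests, and FPKM values, used for levels between genes, ratios and alternatives. A deposited block on a log2-like scale was not used. The authors' deposited comparison holds a signed fold change, a score negative where the knockout is lower, and p-values, of which only counts are quoted.

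The count test was that of edgeR 4.0.16 (R 4.3.3): filterByExpr (15347 of 18507 genes kept), TMM scaling (factors 1.09 to 1.19 in Beclin1 KO and 0.829 to 0.935 in WT), robust quasi-likelihood fit with genotype as its only term, and Benjamini-Hochberg adjustment over all tested genes with a threshold of 0.05. The SE is the log2 fold change over the root of the F statistic. The biological coefficient of variation was 33.2%. The script was tested on simulated data in which few genes changed, equally often up and down. That test does not bear on the scaling where many genes change, as here. Alternatives used limma 3.58.1 and DESeq2 1.42.0 and are given in the closing section. No 2 libraries agreed within sampling noise. Depth was 44269031 counts per library or more, and 3 libraries per group, not depth, limit precision for all but the scarcest genes.

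All 32 members are named. Of each further list the 4 smallest adjusted p and any direction with 5 or fewer calls are named. Eif2ak2, Fgf21 and Amt were added after their values were seen. The members, lists and tests were chosen with earlier results of these data known. Positions and promoters came from RefSeq (GRCm38.p6, the assembly behind mm10).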

Additional observations from a re-analysis of the deposited data

How the results depend on the processing

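Of the 15 members called, 10 (Atf5, Nupr1, Ppp1r15b, Chac1, Eif4ebp1, Slc1a5, Psat1, Psph, Mthfd1l and Aldh1l2) passed in every alternative fitted, and none of the 15 changed sign. Calls of the other 5 were lost as stated beside each. Mthfd1l was too low for the filter of the FPKM fits, so it was tested in 14 alternatives, none of them on that scale. Over all alternatives the adjusted p spanned 4.88e-07 to 0.147 for Cebpg, 4.06e-05 to 0.0521 for Slc7a5, 0.00153 to 0.0701 for Phgdh, 0.00397 to 0.190 for Shmt1 and 0.00603 to 0.365 for Mthfd1. For members without a call that passed somewhere it spanned 0.00405 to 0.207 for Ddit3, 0.00579 to 0.544 for Trib3, 0.000849 to 0.189 for Asns, 0.0367 to 0.215 for Slc7a1, 0.0161 to 0.216 for Pck2, 0.0429 to 0.427 for Gdf15, 0.0157 to 0.484 for Eif2ak3, 0.0354 to 0.926 for Eif2ak1 and 0.0306 to 0.987 for Shmt2. RLE and upper-quartile scaling changed no call of a member. The limma fit on FPKM moved counts most. Its values carry no TMM factor, while those of the count fit were 1.09 to 1.19 in Beclin1 KO and 0.829 to 0.935 in WT. The FPKM fit differs from the count fit in scale, test and gene filter together, whose parts were not separated. There 12 members were higher and 5 lower with either pseudocount (1 or 0.1), against 7 and 8, and of all genes 1706 and 1696 fell, against 3339. In the 5 further lists 27 rose and 11 fell, against 14 and 30. By role, on that scale 2 transcription factors rose and 1 fell, 2 kinases rose, 2 transporters rose and 0 one-carbon enzymes fell. Among the members and the named genes of the further lists, signs turned for Atf4 (0.23 and 0.23), Eif2ak1 (0.29 and 0.31), Cth (0.12 and 0.22), Eif2b5 (0.0085 and 0.0088) and Eif2d (0.0014 and 0.0014), the median gene being shifted by 0.32 and 0.34.

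With DESeq2, 2 transcription factors and 2 transporters rose and 2 synthesis enzymes fell, the last also with limma-voom, and 2 transcription factors rose with the 1 CPM filter. Without the muscle-richest library of each genotype, 2054 of all genes and 12 of the further lists fell, 2 effectors rose, 1 one-carbon enzyme fell, and the signs of Ddit4 (-0.24) and Cth (0.087) turned. The cause of these changes was not tested.

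Leaving out each library in turn gave 18 to 34 genes lower in the further lists. It gave 0 to 2 transporters higher, 1 to 3 synthesis enzymes higher and 1 to 2 lower, and 0 to 2 one-carbon enzymes lower. Members without a call whose sign turned were Atf4 (-0.43 to 0.10), Eif2ak1 (-0.13 to 0.024), Eif2ak4 (-0.075 to 0.18), Ppp1r15a (-0.37 to 0.46), Ddit4 (-0.25 to 0.36), Cth (-0.42 to 0.017) and Shmt2 (-0.063 to 0.13), and so did the log2 ratio of paired genes Eif2ak3 over Eif2ak4 (-0.0058 to 0.31).

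Replicate numbers are shared between the genotypes, and the sources used here do not say that they pair animals. The deviations of same-numbered libraries from their group means correlated at -0.421, 0.005 and 0.426. With 3 libraries per group these values cannot decide whether the numbers pair animals. With the replicate number as a block, 7 members rose and 7 fell, 1 one-carbon enzyme fell, and the value of Ddit4 was -0.000694.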
